A study of Mus musculus with 12 samples.

Results

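The comparison described here sets spinal cord lesions of mice whose ovaries were removed 8 weeks before the injury (OVX8_SCI7) against lesions of mice that had the injury alone (SCI7). Its members are 8 of the 12 libraries of the series, 4 in each group, chosen by their labels, and every gene of the table was considered. All animals were female C57BL/6J wild-type mice with a clip compression injury of the thoracic cord at T9-T10, and tissue reaching about 0.5 cm to either side of the lesion was taken 7 days after the injury. The remaining 4 libraries, from mice ovariectomised 2 weeks before the same injury (OVX2_SCI7), entered the model fit of all 12 libraries to share its estimate of the spread. They thereby also entered its low-count filter, its scaling and the fit of its offset, but are not compared here. No sham operation and no uninjured cord was analysed here, and the labels give an age of 8 weeks for every animal, which cannot be the age at collection in OVX8_SCI7. Surgery, loss of ovarian hormones, time since surgery and possibly age therefore cannot be told apart.

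The ovaries supply most of the oestrogen and progesterone in the blood, and their removal lowers both. One week after a compression injury, the cord lesion holds microglia and infiltrating macrophages that engulf myelin debris, with reactive astrocytes at its border and surviving neurons and oligodendrocytes in the rim. Phagocytes that take up myelin handle its cholesterol and lipid, and they can be induced by interferons to display peptides on MHC class I and class II molecules. In RNA sequencing, the recovery of a transcript can also depend on the share of G and C bases in it, which differs between classes of genes. The comparison therefore asks which classes differed beyond that trend.

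The libraries held 18222809 to 22607698 estimated counts, except replicate 2 of OVX8_SCI7 with 31781728, which is 162% of the mean of the other 7. A floor of 3 counts equals 0.0944 to 0.165 CPM, the count of a gene scaled to a library of fixed size, and it covers counting error only. The labelled tissue was borne out by its glial markers: Gfap, the filament protein of astrocytes, stood at 4914 to 6802 CPM and Mbp, the myelin basic protein, at 8856 to 13946 CPM over the 8 libraries. Replicate 3 of SCI7 stood apart from the other 3 SCI7 libraries. Spp1, a secreted phosphoprotein made by lesion phagocytes, was at 574 CPM there and at 6007, 6405 and 8997 CPM in replicates 1, 2 and 4, while Snap25, a synaptic protein of neurons, was highest there at 2228 CPM against 553 to 1549. Medians of phagocyte, matrix and neuronal lists are therefore given with and without that library. In bulk tissue, fewer cells of a type and less RNA per cell cannot be told apart.

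Without any adjustment, the differences between the groups followed the GC content of the transcripts. Across 15087 protein-coding genes, the log2 difference between OVX8_SCI7 and SCI7 had a Spearman correlation of 0.818 with GC content, as a description across genes, which are not independent replicates. In the quintile at the GC-poor end (31.9 to 44.2%), the median log2 difference was -0.74 and 57.4% of the genes were called lower. In the highest quintile (56.0 to 74.7%), the median was 0.71 and 43.0% were called higher. For each library, the deviation of its levels from the mean of all 12 libraries was correlated with GC content. The correlation was -0.74, -0.80, -0.49 and -0.51 in SCI7 replicates 1 to 4, and 0.57, 0.83, 0.75 and 0.15 in OVX8_SCI7 replicates 1 to 4. These values are relative to the shared mean and do not describe a library by itself. The groups did not overlap (exact two-sided permutation test, p = 0.0286, the smallest that 4 against 4 allows, and 0.05 after Benjamini-Hochberg adjustment over 7 library measures). Replicate 4 of OVX8_SCI7 lay nearest to the SCI7 libraries and replicate 2 farthest from them.

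Stretches of 3 reference transcripts show what this trend is about, with every G and C in capitals. Each line gives 90 bases from the middle of the coding sequence. Apoe, an apolipoprotein that carries cholesterol, has a GC-rich transcript (59.5% G and C), while B2m, the light chain of MHC class I, and Idi1, an enzyme of cholesterol synthesis, have GC-poor ones (41.2 and 41.9%). The whole coding sequences hold 62.6% in Apoe, 49.6% in B2m and 42.5% in Idi1. The B2m stretch, at 41.1%, is thus poorer in G and C than its coding sequence.
Apoe: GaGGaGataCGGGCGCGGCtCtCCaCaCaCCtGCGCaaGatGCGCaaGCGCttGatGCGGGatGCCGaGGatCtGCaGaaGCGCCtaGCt
B2m: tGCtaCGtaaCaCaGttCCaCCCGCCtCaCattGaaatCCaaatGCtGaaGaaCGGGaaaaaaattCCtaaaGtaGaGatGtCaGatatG
Idi1: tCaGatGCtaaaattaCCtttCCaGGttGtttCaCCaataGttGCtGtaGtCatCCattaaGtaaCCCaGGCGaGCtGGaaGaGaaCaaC

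An offset was then fitted for each library, namely its smooth trend on GC content and transcript length, so that only what departs from the trend was compared. With it, the correlation between the log2 difference and GC content was 0.0085, the quintile medians lay between -0.06 and -0.04, and 58.7% of the variance of the log2 differences across genes was gone. Of the genes that had been called higher, 70.5% were still above 0 with the offset, and of those called lower, 82.5% were still below 0.

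**Figure D1:**
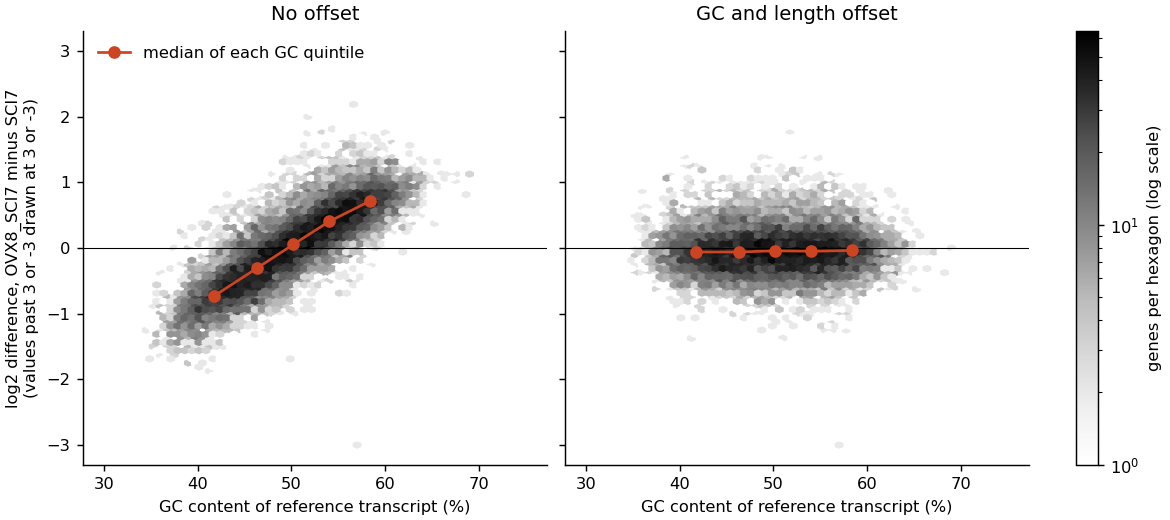
Log2 difference between OVX8_SCI7 and SCI7 (y axis) against the GC content of the reference transcript in percent (x axis) for 15087 protein-coding genes, as hexagons shaded by the number of genes on a log scale, with the median of each GC quintile in red. The medians run from -0.74 to 0.71 without the offset and stay between -0.06 and -0.04 with it.

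By edgeR's quasi-likelihood test on all 12 libraries, with Benjamini-Hochberg adjustment and a threshold of 0.05, 2112 of 17820 genes rose without the offset (11.9%) and 2781 fell (15.6%). With the offset, 0 of 17448 genes passed, with a smallest adjusted p of 0.0967, while 995 higher (5.7%) and 1612 lower (9.24%) had an unadjusted p under 0.05. DESeq2 with the same offset called 769 genes and limma-voom 7. Fitted on the 8 libraries alone, where OVX2_SCI7 adds nothing to the estimate of the spread, edgeR with the offset called 256 genes higher (1.51%) and 445 lower (2.62%) of 16959. The words rose and fell below refer to that fit of the 8 libraries, and its adjusted p-values stand beside each gene. List medians, list levels and counts without overlap come from the fits of all 12 libraries. The number of calls in the 8 libraries changed when 1 library was left out, which also removes a replicate from its group. Leaving out replicate 1 or 2 of SCI7 left 2 and 14 calls. Leaving out replicate 1, 2, 3 or 4 of OVX8_SCI7 left 2, 3, 4 and 254. Leaving out replicates 3 and 4 of SCI7 gave 857 and 1880. What is less dependent on the threshold is where the 4 libraries of each group lie, and 7.2% of all genes had every OVX8_SCI7 library above every SCI7 library with the offset, and 9.66% every library below. Counts of list members called or without overlap are to be read against these shares of all genes. Leaving out a library can only raise a count without overlap, so a count that stays the same is no sign of stability.

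The greater depth of OVX8_SCI7 replicate 2 was examined by thinning its counts at random to the mean total of the other 11 libraries, 19610715 counts, which kept 61.7% of them. Without the offset, 4883 genes were then called, against 4893 at full depth and 0 when the library was left out. With the offset, the 8 libraries alone gave 698 calls after thinning, against 701 at full depth and 3 without the library. The counts of calls thus barely moved when the extra reads were removed. Leaving out the library also removes a replicate from its group. In the 8 libraries with the offset, leaving out OVX8_SCI7 replicate 1, 3 or 4 instead left 2, 4 and 254 calls. In the 12 libraries without the offset, leaving out those replicates left 2536, 1215 and 4644.

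**Figure D2:**
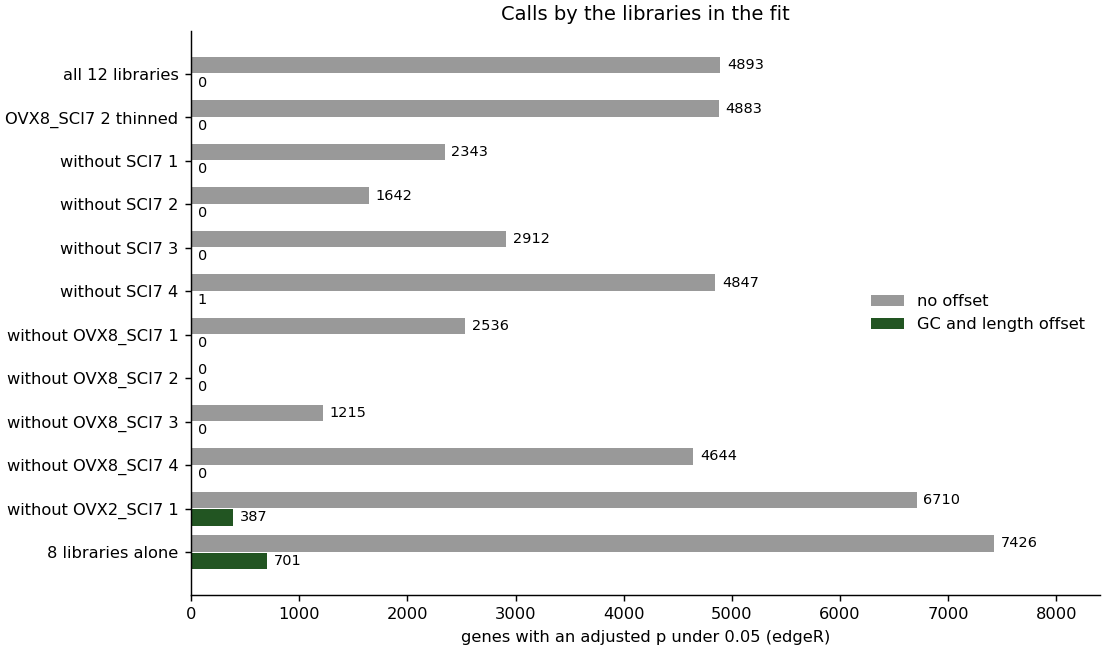
Number of genes with an adjusted p under 0.05 by edgeR (x axis) for each choice of libraries (y axis), without the offset in grey and with it in green. Thinning OVX8_SCI7 replicate 2 left 4883 calls without the offset, while leaving it out left 0, and the offset left calls only in 3 of the fits drawn: without SCI7 replicate 4 (1), without OVX2_SCI7 replicate 1 (387) and with the 8 libraries alone (701).

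Several classes that had seemed to differ lay at 0 once the trend was removed. The 379 tested zinc finger genes whose symbols begin with Zfp, most of them DNA-binding proteins with GC-poor transcripts, had a median log2 difference of -0.43 without the offset and 0.00 with it. The 27 tested splicing factors went from -0.47 (14 called lower, 4 higher) to -0.03, the 36 nuclear-encoded subunits of respiratory complex I from 0.41 to 0.01, and the 19 glycolytic enzymes from 0.34 to -0.12. The median of all genes was 0.01 without the offset and -0.06 with it, and list medians below are to be read against the latter. Other classes kept most of their difference, among them MHC genes, lesion phagocyte genes and cholesterol synthesis. A few stood out only with the offset.

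**Figure D3:**
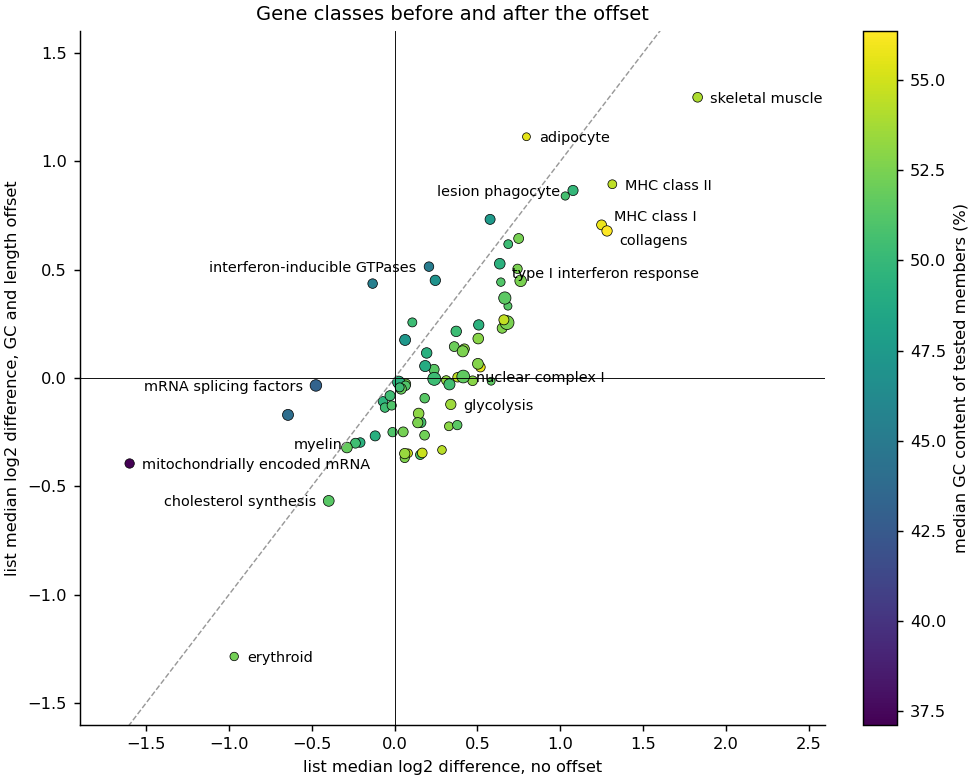
Median log2 difference of each gene list with at least 5 tested members, without the offset (x axis) and with it (y axis), with colour for the median GC content of the members in percent, point area growing with the number of tested members, and the dashed line marking equal values. Splicing factors and complex I subunits fall to about 0 with the offset, while MHC class II (0.89), lesion phagocyte genes (0.87) and cholesterol synthesis (-0.57) stay away from it.

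Genes of MHC class I and its peptide loading, which present fragments of cytosolic proteins to T cells, were higher in OVX8_SCI7 throughout the list. All 16 members were above 0 with the offset (median 0.71), in 14 of 16 every OVX8_SCI7 library lay above every SCI7 library, against 7.2% of all genes, and 8 rose. H2-K1, a classical class I heavy chain, stood at 94.9, 108, 56.6 and 118 CPM in SCI7 and 352, 265, 262 and 241 in OVX8_SCI7. The groups were far apart, and H2-K1 rose by 0.94 on the log2 scale with the offset (SE 0.18, adjusted p = 0.0314). H2-T23, the non-classical class I molecule Qa-1, stood at 25.5, 23.8, 15.1 and 26.8 CPM in SCI7 and 80.3, 67.4, 63.1 and 54.6 in OVX8_SCI7, and rose by 1.08 (SE 0.12, adjusted p = 0.0144). H2-Q4, a further class Ib gene, rose by 0.64 (SE 0.11, adjusted p = 0.0266). The others that rose were H2-D1, H2-T22, Tap2, a chain of the peptide transporter, and Psmb10, a subunit of the immunoproteasome.

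B2m differed from the heavy chains in its raw values, at 549, 433, 208 and 373 CPM in SCI7 and 649, 418, 450.5 and 496 in OVX8_SCI7. These groups overlapped and the difference without the offset was 0.37 (adjusted p = 0.411), but in the quintile of genes to which its GC content belongs 57.4% were called lower. With the offset B2m rose by 1.04 (SE 0.18, adjusted p = 0.0266). That rise rests on the correction, which used the GC content of the whole transcript (41.2%), while the coding sequence holds 49.6%. The heavy chain genes are related in sequence, so that reads could be split between them, which was not measured, and their single values are uncertain. Without SCI7 replicate 3 the median of the class was 0.62, with 14 of 16 members not overlapping, a count that leaving out a library cannot lower. Without OVX8_SCI7 replicate 2 it was 0.75, but none of the 16 was called in the 8 libraries, where 0.0058% of all genes were then called higher and 0.0116% lower.

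The interferon-inducible GTPases, which attack membranes around intracellular microbes, were one of the classes that the trend had covered. The list was chosen for description after its values were seen. Its 14 members have GC-poor transcripts (median 45.2%), with a median of 0.21 and 0 calls without the offset. With it, all 14 were above 0, the median was 0.51 and 11 of 14 did not overlap, against 7.2% of all genes. List levels in OVX8_SCI7 were 0.57, 0.51, 0.62 and 0.61, and in SCI7 0.10, 0.11, -0.20 and 0.05, so the 4 ovariectomised libraries lay close together. Gbp2, Gbp3, Irgm2 and Tgtp2 rose, where 1.51% of all genes did. Gbp3 rose by 0.76 (SE 0.15, adjusted p = 0.0341), from 21.3, 16.2, 11.5 and 14.7 CPM to 21.2, 18.9, 25.7 and 22.4, values that overlap before the offset.

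Of the 21 genes of the type I interferon response, 12 had an unadjusted p under 0.05 and were higher, against 5.7% of all genes, with a median of 0.53. All 21 were above 0, 10 of them without overlap, and 3 rose: Oas1a, Zbp1 and Bst2. Oas1a, an enzyme that senses double-stranded RNA, stood at 6.29, 5.0, 3.27 and 6.71 CPM in SCI7 and 16.9, 13.8, 14.6 and 12.6 in OVX8_SCI7, and rose by 1.16 (SE 0.16, adjusted p = 0.0197). Bst2, tetherin, which holds budding virus particles at the cell surface, went from 15.7, 15.4, 6.21 and 16.7 CPM to 61.5, 40.0, 37.4 and 29.9 and rose by 1.06 (SE 0.22, adjusted p = 0.0385). Outside the list, Ifi27, a further interferon-induced gene, rose by 0.46 (SE 0.08, adjusted p = 0.0266), and so did Lgals3bp, a secreted galectin ligand, by 0.99 (SE 0.16, adjusted p = 0.0262). As a list the separation was incomplete, since OVX8_SCI7 replicate 4 (0.26) lay below SCI7 replicate 1 (0.34).

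Reference promoters of these genes, from RefSeq on GRCm38.p6 and reaching from 250 bases before to 50 after the start, were searched for 2 copies of GAAA with 2 bases of any kind between them, the core of the interferon-stimulated response element, on both strands. Of 11708 tested coding genes with a promoter in the table, 3.81% hold it. Among the GTPases 9 of the 9 with a promoter hold it, among the type I response genes 8 of 14, among the class I genes 4 of 14 and among the class II genes 0 of 7. A match is a description of the letters and no evidence of binding. The promoters of 4 members with a match are shown because these genes rose in the fit of the 8 libraries, with the matching bases in capitals, which run in reverse complement in H2-T23 and Gbp3. They lie at chr5:120907476-120907775 on the minus strand (Oas1a), chr2:122147437-122147736 on the plus strand (B2m), chr17:36032652-36032951 on the minus strand (H2-T23) and chr3:142559794-142560093 on the plus strand (Gbp3). In Oas1a and Gbp3 a pair of overlapping matches shares bases.
Oas1a: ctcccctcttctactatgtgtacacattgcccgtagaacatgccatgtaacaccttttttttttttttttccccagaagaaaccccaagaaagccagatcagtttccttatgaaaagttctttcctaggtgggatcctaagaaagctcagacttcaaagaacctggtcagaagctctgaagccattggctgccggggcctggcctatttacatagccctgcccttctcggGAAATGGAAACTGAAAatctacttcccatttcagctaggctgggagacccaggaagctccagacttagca
B2m: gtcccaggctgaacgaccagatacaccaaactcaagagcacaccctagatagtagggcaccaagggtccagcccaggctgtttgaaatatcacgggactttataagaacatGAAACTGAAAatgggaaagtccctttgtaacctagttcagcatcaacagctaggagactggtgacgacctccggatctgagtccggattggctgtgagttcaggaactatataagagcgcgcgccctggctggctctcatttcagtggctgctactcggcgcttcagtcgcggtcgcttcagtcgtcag
H2-T23: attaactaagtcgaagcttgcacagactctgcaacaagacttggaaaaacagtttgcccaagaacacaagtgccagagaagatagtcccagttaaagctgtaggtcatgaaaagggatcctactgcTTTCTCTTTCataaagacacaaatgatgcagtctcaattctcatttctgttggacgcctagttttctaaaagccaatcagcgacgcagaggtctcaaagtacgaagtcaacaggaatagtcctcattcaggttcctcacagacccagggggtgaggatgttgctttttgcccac
Gbp3: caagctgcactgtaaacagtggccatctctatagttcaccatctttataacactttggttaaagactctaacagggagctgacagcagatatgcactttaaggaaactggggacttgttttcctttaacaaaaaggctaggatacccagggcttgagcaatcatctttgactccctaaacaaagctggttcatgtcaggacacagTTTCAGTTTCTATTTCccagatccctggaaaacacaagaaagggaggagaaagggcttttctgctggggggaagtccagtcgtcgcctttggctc

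Genes of MHC class II, which present material taken up by phagocytes and B cells, were also higher. All 10 members were above 0 (median 0.89). Against 7.2% and 1.51% of all genes, 6 of 10 did not overlap and 1 rose. This was H2-Eb1, a class II beta chain, at 14.2, 12.7, 2.89 and 14.4 CPM in SCI7 and 48.1, 36.1, 37.5 and 35.6 in OVX8_SCI7, with a log2 difference of 1.58 (SE 0.35, adjusted p = 0.0442). H2-Ab1 showed the same order of libraries but did not pass (1.12, SE 0.35, adjusted p = 0.108). The low value in SCI7 replicate 3 widens the spread: without that library the list median was 0.68, with 6 of 10 members not overlapping and 5 of 10 called in the 8 libraries, where 2.19% of all genes were called higher.

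The 18 lesion phagocyte genes, which mark microglia and macrophages laden with debris, had a median of 0.87 and were all above 0. Of these, 12 of 18 did not overlap, against 7.2% of all genes. None of them passed with all 8 libraries. Apoe stood at 3537, 3636, 1789 and 4647 CPM in SCI7 and 14032, 11707, 10709.5 and 9852 in OVX8_SCI7, a difference of 0.97 with the offset (SE 0.23, adjusted p = 0.0521) against 1.77 without it. Itgax, the integrin CD11c, was at 20.3, 32.1, 2.07 and 24.7 CPM against 57.2, 50.7, 59.2 and 79.9 (1.45, SE 0.57, adjusted p = 0.174). Trem2, the lipid-sensing receptor of these cells, was at 101, 107, 28.3 and 132 CPM against 375, 288, 250.1 and 246 (0.97, SE 0.34, adjusted p = 0.134). Each of these 3 genes had its lowest value in SCI7 replicate 3 and was without overlap, which setting that library aside cannot change. Without SCI7 replicate 3 the list median was 0.57, and 12 of 18 did not overlap, against 9.64% of all genes. There 7 rose, against 2.19% of all genes: Apoe, Trem2, Gpnmb, Lpl, Itgax, Lgals3 and Fabp5. Spp1, a member of the same list, overlapped between the groups, at 6384, 5169, 3885 and 7012 CPM in OVX8_SCI7 (log2 difference 0.51, SE 0.60, adjusted p = 0.640).

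Other immune classes were higher to a lesser or less even degree. The 17 tested of 20 chemokines had a median of 0.73 (0.60 without SCI7 replicate 3) with 3 not overlapping, against 7.2% of all genes, and Cxcl16, a membrane-bound chemokine, differed by 1.06 (SE 0.27, adjusted p = 0.0644). The 16 complement genes, a list chosen for description after its values were seen, had a median of 0.64 (0.47 without SCI7 replicate 3), with 6 not overlapping and C2 alone called. Of the 11 genes of B and plasma cells 7 were tested (median 0.84, 0.88 without SCI7 replicate 3, 5 not overlapping), and Ighm, the heavy chain of IgM, stood at 17.9, 14.2, 12.4 and 7.82 CPM against 23.8, 23.4, 38.4 and 21.3 (0.74, SE 0.28, adjusted p = 0.160). Homeostatic microglia genes had a median of 0.26 with 2 of 11 not overlapping. Their median was 0.14 without SCI7 replicate 3, and 6 of 11 did not overlap without OVX8_SCI7 replicate 2, against 8.13% of all genes. One of them, Selplg, a selectin ligand, rose by 0.47 (SE 0.11, adjusted p = 0.0445), from 56.6, 47.2, 36.3 and 57.0 CPM to 107, 123, 126 and 103, and Tmem119, a marker of resident microglia, differed by 0.32 (SE 0.12, adjusted p = 0.158). The 13 tested neutrophil genes had a median of -0.25 with 0 called, and medians from -0.44 (without SCI7 replicate 1) to -0.09 (without OVX8_SCI7 replicate 1) when 1 library was left out.

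**Figure D4:**
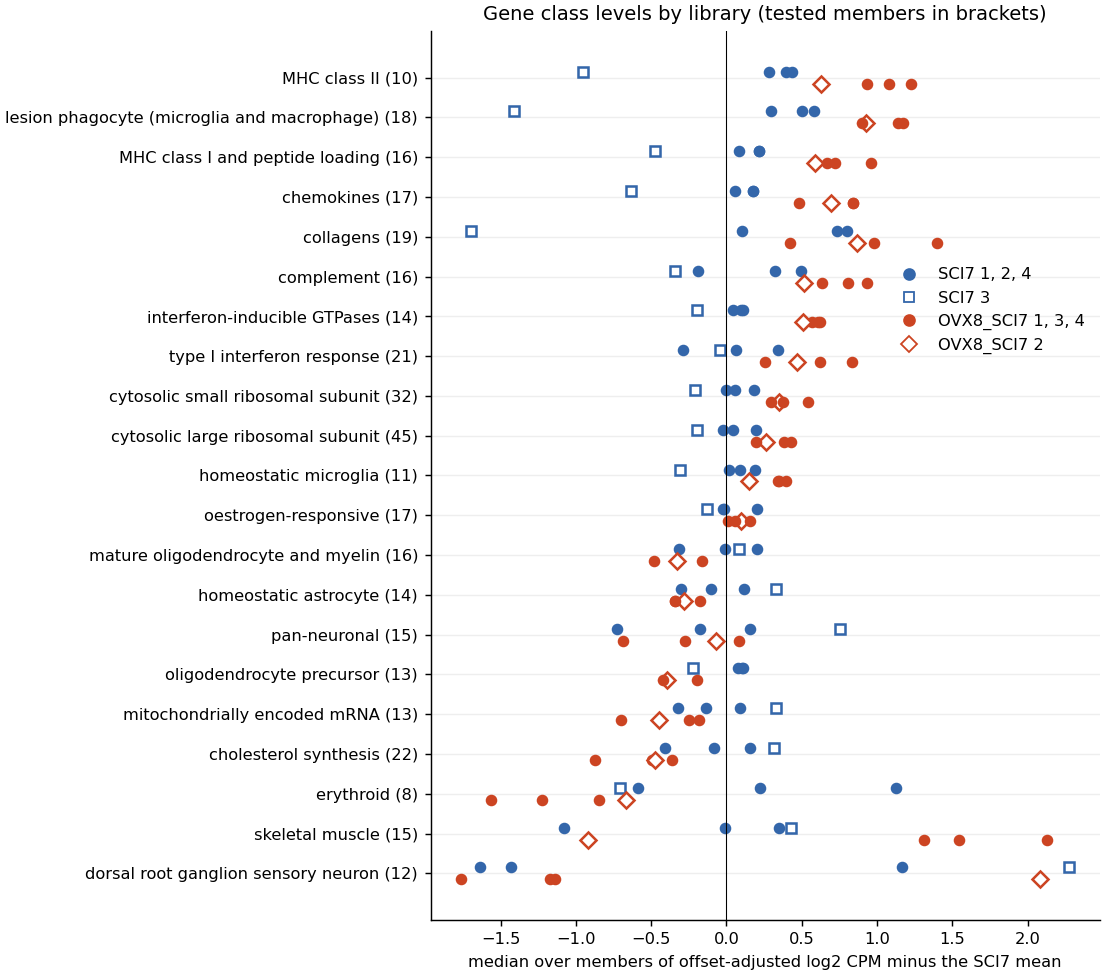
Level of each gene class in each library (x axis, median over the tested members of offset-adjusted log2 CPM minus each member's SCI7 mean), one class per row with its number of tested members, SCI7 in blue and OVX8_SCI7 in red, with open symbols for SCI7 replicate 3 and OVX8_SCI7 replicate 2. The groups do not overlap for MHC class I, MHC class II, lesion phagocytes, chemokines, complement, the GTPases and the small ribosomal subunit. They overlap for all other classes drawn. Among these are cholesterol synthesis, myelin, oligodendrocyte precursors, mitochondrial messages, erythroid genes, type I interferon response, collagens, and neuronal, muscle and sensory neuron genes.

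Genes of the cytosolic ribosome, which code for proteins of the translation machinery, shifted upward by a smaller amount. Of 32 genes of the small subunit 9 rose (median 0.37, 17 not overlapping), and of 45 of the large subunit 14 rose and 2 fell (median 0.26, 23 above and 3 below without overlap). Over all genes 1.51% rose and 2.62% fell, and 7.2% lay above and 9.66% below without overlap. Rps6, a small subunit protein phosphorylated by growth signalling, stood at 185, 144, 131 and 234 CPM in SCI7 and 382, 324, 326 and 341 in OVX8_SCI7, and rose by 0.87 (SE 0.15, adjusted p = 0.0266). Rpl23a, of the large subunit, stood at 176, 131, 97.0 and 178 CPM against 423, 279, 225 and 218, and rose by 0.89 (SE 0.13, adjusted p = 0.0212). Rpl5 went the other way, from 39.6, 36.3, 32.3 and 30.2 CPM to 17.4, 17.7, 15.7 and 18.6, and fell by 0.46 (SE 0.09, adjusted p = 0.0362), as did Rpl38 by 0.53 (SE 0.11, adjusted p = 0.0374), although without the offset Rpl38 differed by 0.26 in the other direction. Replicate 1 of OVX8_SCI7 was the highest of its group for Rpl23a and Rps6. Ribosomal protein genes have many processed copies in the genome, so their single values are uncertain.

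Plin4, a coat protein of lipid droplets best known from fat cells, was higher in every OVX8_SCI7 library. It stood at 6.13, 17.2, 12.6 and 8.58 CPM in SCI7 and at 49.5, 53.0, 70.9 and 36.6 in OVX8_SCI7, and rose by 1.70 (SE 0.29, adjusted p = 0.0266) against 2.24 without the offset. Only 5 of 14 fat cell genes passed the low-count filter, with a median of 1.11 and 4 of them above 0. The 1 member below 0 (-0.82) had every OVX8_SCI7 library below every SCI7 library. Those above 0 included Lipe, a lipase, which differed by 0.24 (SE 0.13, adjusted p = 0.288), and Fabp4, a fatty acid carrier, by 1.46 (SE 0.52, adjusted p = 0.141). The 15 tested genes of skeletal muscle had the highest list median, 1.3, yet none was without overlap. Levels of that list were 1.55, 1.31 and 2.13 in OVX8_SCI7 replicates 1, 3 and 4, and -0.92 in replicate 2, below 3 of the 4 SCI7 libraries. Acta1, skeletal actin, was at 8.06, 0.838, 10.6 and 15.1 CPM in OVX8_SCI7 and 1.95, 3.76, 6.92 and 0.656 in SCI7. The part of muscle tissue in other results was not tested.

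The median of the collagens, matrix proteins made by fibroblasts, depended on 1 library. The 19 collagens had a median of 0.68 and were all above 0, but 1 of 19, Col16a1, did not overlap, and none was called. Their list levels in SCI7 were 0.11, 0.80, -1.70 and 0.73, against 0.98, 0.87, 0.42 and 1.4 in OVX8_SCI7, so that SCI7 replicate 3 alone lay far below. Without it the median was 0.33. Without OVX8_SCI7 replicate 3, the lowest library of its group, 9 of 19 did not overlap and 0 were called. Leaving out a library can only add to the count without overlap. Its share over all genes was not computed in this setting, so that count cannot be weighed. The 13 genes of fibroblasts and meninges had a median of 0.50, and 0.36 without SCI7 replicate 3.

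The enzymes of cholesterol synthesis were among the classes that were lower. In the adult cord, cholesterol is made locally by glia and serves myelin. Of 22 genes in the list, 21 were below 0 with the offset (median -0.57), 9 of 22 had every OVX8_SCI7 library below every SCI7 library, against 9.66% of all genes, and 5 fell: Idi1, Sqle, Lss, Cyp51 and Msmo1. These 5 act in consecutive stretches of the pathway, from the isoprenoid stage (Idi1) through squalene oxidation and ring closure (Sqle, Lss) to the removal of methyl groups from the sterol (Cyp51, Msmo1). Msmo1 stood at 111, 82.2, 99.99 and 56.4 CPM in SCI7 and 39.1, 30.6, 37.1 and 34 in OVX8_SCI7, and fell by 1.00 (SE 0.19, adjusted p = 0.0347). Cyp51 stood at 132, 107, 125 and 78.7 CPM against 59.2, 50.3, 56.8 and 47.1, and fell by 0.78 (SE 0.17, adjusted p = 0.0413). Lss, lanosterol synthase, whose GC content of 52.2% lies near the middle, stood at 43.8, 40.5, 57.7 and 34.5 CPM against 26.1, 29.1, 31.8 and 24.3, and fell by 0.95 (SE 0.18, adjusted p = 0.0333).

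Idi1, shown above as a GC-poor transcript, stood at 139, 97.5, 113 and 61.0 CPM against 35.5, 29.8, 33.0 and 28.7. Its difference was -1.69 without the offset and -1.04 with it (SE 0.20, adjusted p = 0.0357), so part of it lay along the trend and part beyond. SCI7 replicate 4 was the lowest SCI7 library for Msmo1, Cyp51, Lss and Idi1. As a list the groups overlapped, since SCI7 replicate 4 (-0.41) lay below OVX8_SCI7 replicate 3 (-0.36). Without SCI7 replicate 3 the median of the list was -0.38, with 9 of 22 not overlapping and 5 called, against 11.7% and 2.81% of all genes. Without OVX8_SCI7 replicate 2 it was -0.58, with 9 of 22 not overlapping and 0 called, against 10.6% and 0.0116%. Without SCI7 replicate 4 it was -0.71, with 19 of 22 not overlapping and 17 called. In that setting 17.1% of all genes lay below without overlap and 6.77% were called lower (13.7% above and 4.15% higher). No member was called when SCI7 replicate 1 or 2, or OVX8_SCI7 replicate 1, 3 or 4, was left out. The sterol regulatory element TCACNCCAC, searched on both strands, occurs in 1 of 16 promoters of the list that are in the table, that of Hmgcs1, and in 1.41% of all. Of 319 KEGG pathways in the deposited annotation with at least 15 tested genes, steroid biosynthesis had the lowest median (-0.52, 17 genes) and allograft rejection, which includes MHC genes, the highest (0.67, 26 genes).

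Genes of mature oligodendrocytes and myelin had a median of -0.30, with 14 of 16 below 0, 5 of 16 not overlapping and 3 that fell. Over all genes, 9.66% lay below without overlap and 2.62% fell. Mobp, a structural protein of compact myelin, stood at 3314, 2703, 3841 and 2414 CPM in SCI7 and 2045, 1986, 2155 and 1684 in OVX8_SCI7, and fell by 1.04 (SE 0.20, adjusted p = 0.0335). Aspa, which splits N-acetylaspartate, fell by 0.72 (SE 0.15, adjusted p = 0.0407), and Gjc3, a connexin of oligodendrocytes, by 0.49 (SE 0.11, adjusted p = 0.0434). Mbp did not follow them, at 11203, 8856, 9858 and 9004 CPM against 11445, 13239, 13946 and 9865 (log2 difference 0.15, SE 0.16, adjusted p = 0.609). So the list was uneven, and the most abundant transcripts of myelin did not share one direction. Its levels overlapped between the groups, with SCI7 replicate 4 (-0.31) below OVX8_SCI7 replicate 3 (-0.16).

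Genes of oligodendrocyte precursors had a median of -0.35, with 5 of 13 not overlapping and 1 that fell, against 9.66% and 2.62% of all genes. Lhfpl3, a membrane protein of these cells, stood at 128, 121, 99.6 and 82.8 CPM in SCI7 and 49.0, 46.6, 50.5 and 51.7 in OVX8_SCI7, and fell by 0.44 (SE 0.10, adjusted p = 0.0434) against 1.12 without the offset. As a list the groups overlapped, since SCI7 replicate 3 (-0.22) lay below OVX8_SCI7 replicate 3 (-0.20). Without SCI7 replicate 3, which was the lowest SCI7 library for the list, 10 of 13 members did not overlap, against 11.7% of all genes, and 3 fell in the 8 libraries, where 2.81% of all genes did: Enpp6, Tnr and C1ql1. C1ql1 has the opposite sign without the offset (0.49), at 20.7, 28.3, 26.0 and 19.4 CPM in OVX8_SCI7 and 16.7, 19.8, 12.3 and 18.3 in SCI7, and with its GC content of 65.8% its direction rests on the correction. Sox11, a transcription factor of immature and regenerating neural cells, fell by 1.03 (SE 0.18, adjusted p = 0.0267), from 16, 14.1, 19.9 and 12.5 CPM to 5.91, 7.48, 5.39 and 6.10.

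The level of neuronal genes in SCI7 depended on replicate 3. The 15 pan-neuronal genes had a median of -0.35, the 19 genes of synaptic vesicle release -0.35 and the 9 of excitatory interneurons -0.35, but 0 members of these lists were without overlap and none was called. Without SCI7 replicate 3 the medians were 0.02, 0.02 and -0.06. Snap25 shows the order, with 1549, 1094, 2228 and 553 CPM in SCI7 and 726, 719, 879 and 566 in OVX8_SCI7. Homeostatic astrocyte genes had a median of -0.30 with 0 of 14 called or without overlap, and -0.18 without SCI7 replicate 3. Without SCI7 replicate 4 the astrocyte median was -0.37. There 7 of 14 lay below without overlap, against 17.1% of all genes, and 4 were called lower, against 6.77%. Gfap differed by -0.32 (SE 0.12, adjusted p = 0.156). Transcripts of sensory neurons, which lie outside the cord in the dorsal root ganglia, varied between libraries and not by group. Pirt, found in those neurons, was at 7.30 and 19.1 CPM in SCI7 replicates 2 and 3 and at 18.1 in OVX8_SCI7 replicate 2, and at 0.176 to 0.432 in the other 5 libraries.

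Messages encoded by the mitochondrial genome, which is GC-poor, took 9.35, 7.06, 8.76 and 5.35% of the counts in SCI7 and 3.04, 2.2, 2.54 and 3.36% in OVX8_SCI7, with no overlap (exact two-sided permutation p = 0.0286, adjusted 0.05). Of the 13 messages, 11 fell without the offset in the fit of 12 libraries, with a median of -1.6. With the offset the median was -0.39 and 1 of 13 fell, mt-Nd4l, a subunit of complex I, by 1.28 (SE 0.21, adjusted p = 0.0266). The main message of cytochrome oxidase, mt-Co1, stood at 46513, 34492, 40258 and 25649 CPM against 13488, 9688, 11186 and 15762, a difference of -0.78 with the offset (SE 0.19, adjusted p = 0.0538). The median GC content of these messages was 37.1%, below the median of 41.7% in the lowest quintile of the coding genes.

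Blood genes and hormone targets complete the picture. Of 10 erythroid genes 8 entered the fit with the offset, with a median of -1.29 (-0.78 without SCI7 replicate 4), 3 not overlapping and 0 called. Hba-a1, a globin chain, stood at 41.8, 16.4, 19.1 and 66.3 CPM in SCI7 and 19.7, 23.6, 25.4 and 13.1 in OVX8_SCI7, so that before the offset only SCI7 replicates 1 and 4 were high. The 17 tested of 18 oestrogen-responsive genes had a median of 0.13, with 0 called and 1 not overlapping, Igfbp4, a binding protein of insulin-like growth factors (0.62, SE 0.22, adjusted p = 0.137). Esr1, the main oestrogen receptor, was low and overlapped, at 8.13, 12.1, 11.7 and 5.55 CPM in SCI7 and 7.36, 7.08, 7.24 and 10.2 in OVX8_SCI7 (0.13, SE 0.22, adjusted p = 0.748). Pgr, the progesterone receptor, a classical target of oestrogen, was at 14.3, 11.9, 19.9 and 6.26 CPM against 8.29, 7.85, 8.34 and 5.51 (-0.47, SE 0.32, adjusted p = 0.406).

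Among single genes outside these classes, the clearest were those that differed both with and without the offset. Hcfc2, a relative of a transcriptional cofactor, stood at 38.6, 40.2, 34.6 and 35.6 CPM in SCI7 and 19.5, 19.6, 18.9 and 23.3 in OVX8_SCI7, and fell by 0.65 (SE 0.08, adjusted p = 0.018). Map4k5, a kinase upstream of stress signalling, stood at 96.2, 104, 86.4 and 90.2 CPM against 46.8, 48, 45.4 and 57.0, and fell by 0.59 (SE 0.08, adjusted p = 0.018). Called lower both without the offset in the 12 libraries and with it in the 8 were also Gtf2a2, a general transcription factor subunit (log2 difference -0.98), E2f5, Slc35d1 and Slc38a5. Called higher in both were Strada, a partner of the kinase Lkb1 (1.17, against 0.39 without the offset), H2bc4, a histone, and Tmco3. Before the offset H2bc4 overlapped, at 41.4 CPM in OVX8_SCI7 replicate 4 and 41.5 in SCI7 replicate 1. Adjusted p-values with the offset of the genes called in both ran from 0.0138 (Gtf2a2) to 0.0347 (Slc38a5). Sfrp1, a secreted inhibitor of Wnt signals, fell by 0.60 (SE 0.11, adjusted p = 0.0312). Other genes were called only with the offset. Of these, Psmd10 differed by -0.01 without it, Gid8 by 0.12, Pdzd11 by -0.20, Ak6 by -0.35, Llph by 0.42 and Hacd1 by -0.57, with adjusted p-values from 0.0734 (Ak6) to 0.986 (Psmd10). Cox7c, a subunit of cytochrome oxidase, had the smallest p of the named genes with all 12 libraries, but its raw values overlapped, at 59.4, 51.6, 54.6 and 57.1 CPM against 94.7, 60.4, 52.8 and 54.2, and its rise of 1.11 (SE 0.15, adjusted p = 0.018) comes from the correction for a GC content of 38.4%.

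**Figure D5:**
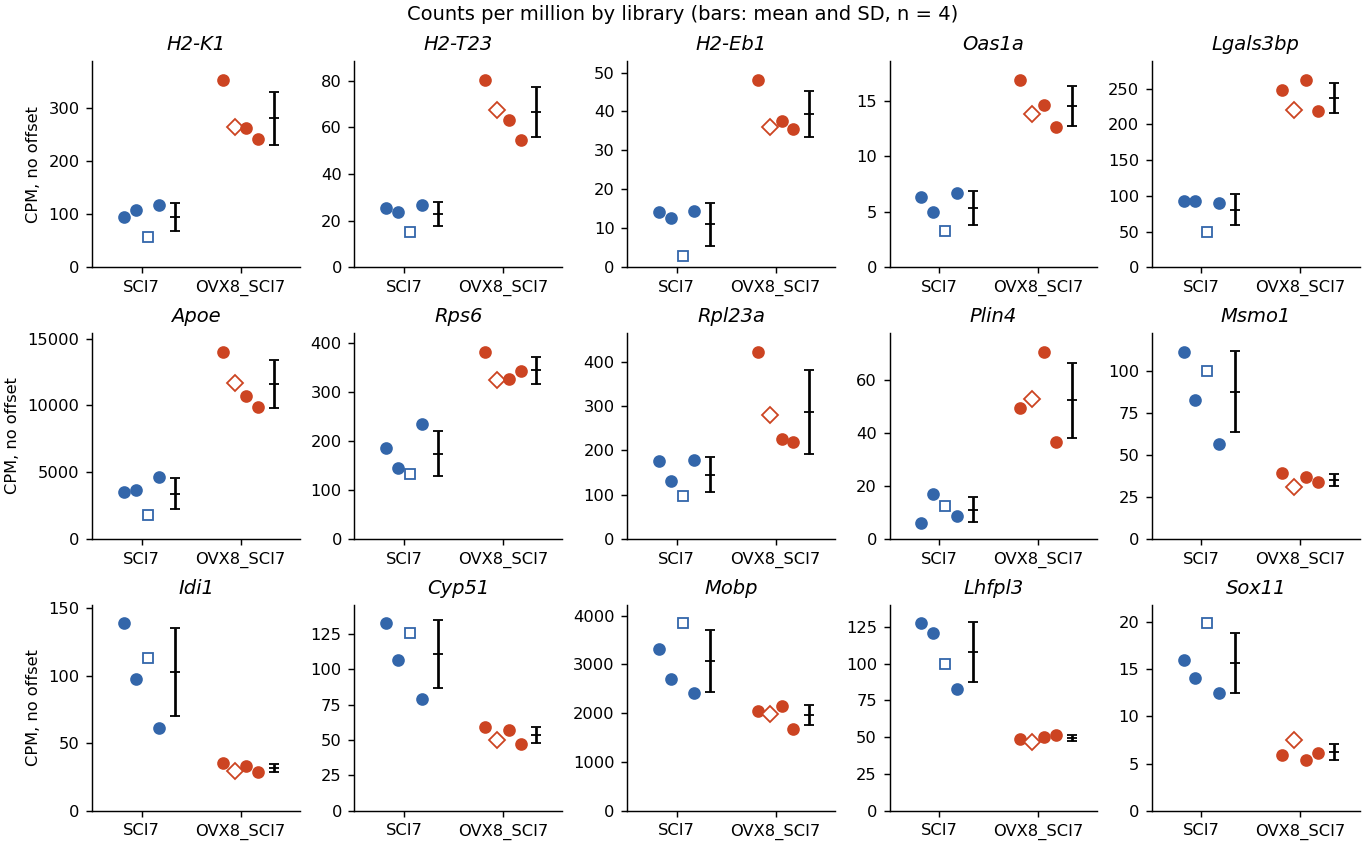
CPM without the offset (y axis, from 0) of 15 genes in each library of SCI7 (blue) and OVX8_SCI7 (red), with the mean and SD of each group beside the points (n = 4) and open symbols for SCI7 replicate 3 and OVX8_SCI7 replicate 2. The 15 genes are a selection from those named, so the lack of overlap in every panel is no result about genes at large. B2m, Gbp3 and Cox7c, which also rose, are not drawn and overlap before the offset. OVX8_SCI7 replicate 2 lies among the other libraries of its group in most panels.

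Septin2, a cytoskeletal filament protein, is uncertain because the table holds it under 2 gene identifiers. One of them fell by 1.37 with the offset (SE 0.23, adjusted p = 0.0266), while the other differed by 1.4 in the opposite direction (SE 0.35, adjusted p = 0.062). Their summed values were 349.8, 361, 189 and 346 CPM in SCI7 and 202, 159, 154 and 227 in OVX8_SCI7, which overlap. The sum differed by -0.75 on the log2 scale (exact two-sided permutation p = 0.0857), and the identifier with the positive difference took 18.8 to 39.2% of it in SCI7 and 64.1 to 78.8% in OVX8_SCI7.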

How the data were processed

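RNA from 12 cord samples, 4 per group, was sequenced and counted per gene. The authors deposited RSEM expected counts, TPM and FPKM, made with fastp 0.23.4, HISAT2 2.2.1 and RSEM 1.3.3 on GRCm39, per the submitters' processing notes. The FPKM values and 9 columns of group means were not used. The deposited expected counts were rounded to whole numbers and tested with edgeR 4.0.16 (R 4.3.3; TMM scaling, filterByExpr, robust quasi-likelihood F-test, group term, 12 libraries, Benjamini-Hochberg threshold 0.05). CPM are TMM-scaled counts without the offset. The authors' deposited TPM, as log2(TPM + 1), served as an alternative only. limma 3.58.1 (voom) and DESeq2 1.42.0 were alternatives too.

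For the offset, each library's log2 CPM deviation was fitted on GC content and length of the longest transcript with natural splines of 5 degrees of freedom each, over genes of at least 5 CPM. Transcripts came from GENCODE M21 on GRCm38, an older build than the authors' own, and 51884 of 57180 genes matched. An offset fitted on GC content also removes any difference that follows it for another reason. The steps were tested on simulated data.

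A gene was counted as not overlapping where all 4 OVX8_SCI7 libraries lay on 1 side of all 4 SCI7 libraries in adjusted log2 CPM. Genes were named by rule: the 12 higher and 12 lower with the smallest p among those not overlapping, up to 4 members of each of 23 described lists, and fixed genes. Single genes and the GTPase and complement lists were added after their values were seen. Members and lists were chosen with earlier results of these data known. No 2 libraries of a group were alike within sampling noise (chi-square per gene 13.1 to 168). The labels call the samples biological replicates. Whether counting used strand is not given in the sources used here.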

Additional observations from a re-analysis of the deposited data

Results flagged for a closer look

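For each list described and each gene named, the highest or lowest of the 4 libraries of a group was marked where its gap to the nearest other, divided by the range of the group, was above Dixon's 95% critical value. Chance marks about 1 in 20 groups, and 17 of 200 groups were marked. The part that any feature of these libraries has in the values was not tested.

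SCI7 replicate 3 was the low library in the level of MHC class II (-0.96, against 0.28 to 0.44 in the other 3), lesion phagocytes (-1.41, against 0.30 to 0.58), chemokines (-0.64, against 0.06 to 0.18) and oligodendrocyte precursors (-0.22, against 0.08 to 0.11). It was also low for H2-Eb1 (2.89 CPM), H2-Ab1 (3.65 CPM), Lgals3bp (49.2 CPM), Cxcl16 (11.5 CPM) and Bst2 (6.21 CPM).

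OVX8_SCI7 replicate 2 was the high library in the level of sensory neuron genes (2.08, against -1.76 to -1.14) and in Pirt (18.1 CPM) and Slc38a5, an amino acid transporter (11.4 CPM, against 7.40 to 7.83). OVX8_SCI7 replicate 1 was high for H2-Eb1 (48.1 CPM) and Ifi27 (72.3 CPM). OVX8_SCI7 replicate 3 was high for Ighm (38.4 CPM) and in the level of oligodendrocyte precursors (-0.20, against -0.42 to -0.40), and replicate 4 was high for Esr1 (10.2 CPM).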

How the results depend on the processing

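Without the offset, the count of genes called (4893) was 3257 with no filter on low counts, 7426 in the 8 libraries alone and 7720 without OVX2_SCI7 replicates 1 and 2, and leaving out 1 library at a time gave 0 (OVX8_SCI7 replicate 2) to 6710 (OVX2_SCI7 replicate 1). It fell by more than 1.5 times also without SCI7 replicates 1 (2343), 2 (1642) and 3 (2912) and OVX8_SCI7 replicates 1 (2536) and 3 (1215). With the offset, the count of 0 became 769 by DESeq2, 7 by limma-voom, 394 with GC content and length of the coding sequence, 701 in the 8 libraries alone and 691 without OVX2_SCI7 replicates 1 and 2, and 0 to 387 when 1 library was left out (387 without OVX2_SCI7 replicate 1). In the 8 libraries alone it was 698 after thinning, 2239 by DESeq2, and 2, 14, 857 and 1880 without SCI7 replicate 1, 2, 3 or 4 and 2, 3, 4 and 254 without OVX8_SCI7 replicate 1, 2, 3 or 4. The cause was not tested. No label says that a replicate number marks a shared animal or day. Same-numbered deviations correlated by 0.229, -0.232, 0.655 and 0.594 with the offset, and numbers 1, 3 and 4 correlated best with their own number (highest with another: 0.124, 0.089 and 0.513). Since number 2 did not, the numbers were not taken as pairs. With the replicate number as a block 3390 genes were called without the offset, 1 with it and 1012 in the 8 libraries alone. List medians that moved by more than the spread between libraries were adipocyte (0.723 on TPM), sensory neuron (-2.35 without OVX8_SCI7 replicate 2, 0.541 without SCI7 replicate 3), oligodendrocyte precursor (-0.206 with coding sequence), myelin (-0.535), oestrogen-responsive (-0.0264), large ribosomal (0.528, and 0.425 on TPM) and small ribosomal (0.587, and 0.527 on TPM). Leaving out 1 library moved other medians by over 1.5 times, among them these. Without SCI7 replicate 3, monocyte went from 0.44 to 0.15, lysosomal from 0.45 to 0.24, homeostatic microglia from 0.26 to 0.14 and homeostatic astrocyte from -0.30 to -0.18, and the phagocyte, collagen and neuronal lists as given above. Monocyte was at 0.29 without SCI7 replicate 1 and 0.28 without OVX8_SCI7 replicate 4. Without SCI7 replicate 4, monocyte went to 0.88, erythroid from -1.29 to -0.78, pan-neuronal to -0.52 and synaptic to -0.56. Oestrogen-responsive went from 0.13 to 0.08, 0.06 and 0.05 without SCI7 replicate 1 or 2 or OVX8_SCI7 replicate 4. Medians near 0 and the neutrophil and sensory neuron lists moved with most libraries. The settings without OVX2_SCI7 replicates 1 and 2 and those within the 8 libraries other than the plain fit were chosen after seeing the data. With 4 libraries a group, a gene near the floor of 3 counts could not be compared.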

Other observations

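Some classes beyond those above also differed from the median of all genes (-0.06) with the offset. Markers of dendritic cells, which carry antigen to T cells, had a median of 0.62 over 10 of 11 genes, with 4 not overlapping and 0 called in the 8 libraries, and 0.44 without SCI7 replicate 3. Lysosomal enzymes and membrane proteins, which digest material taken up by phagocytes, had a median of 0.45 over 27 genes, with 8 above and 1 below without overlap, and 0.24 without SCI7 replicate 3. Monocyte and infiltrating macrophage genes had a median of 0.44 with the offset and -0.13 without it, and 0.15 with the offset when SCI7 replicate 3 was left out. Endothelial genes (-0.09, 14 genes), heat shock chaperones (-0.04, 14 genes) and proteasome subunits (-0.02, 31 genes) lay near the background.

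Among families of genes that share the letters of their symbols before the first digit, the 71 tested genes beginning with Cd, many of them surface antigens of leukocytes, had the highest median (0.42, 19 above and 3 below without overlap), followed by Col (0.39, 43 genes). The lowest was Vmn, vomeronasal receptors, at -0.36 with the offset and -1.33 without it (28 genes). Among KEGG pathways, the synthesis of unsaturated fatty acids had a median of -0.31 with 9 of 29 genes below without overlap and 5 that fell in the 8 libraries.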
